A study of Mus musculus with 7 samples.

Results

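Imprinted genes were followed in mouse neural stem cells of 3 genotypes. A list of 46 imprinted genes was matched by symbol to the deposited table of 18145 genes, and 45 were found. The listed symbol Nespas had no row of its own, and RefSeq gives it as a synonym of Gnasas1, which is described below outside the count. The 45 genes fall into 20 imprinted clusters on 11 chromosomes, and all 45 passed the filter on low values. Total RNA came from cells at passage 1. Per the series' design text, 3 wild-type (WT) lines, 2 Tet-TFoCa (TFoCa) lines and 2 Tet-TMut (TMut) lines were used, which gives 1 line for each of the 7 libraries; that text writes Tet-FoCa where the genotype labels write Tet-TFoCa. The series title contrasts DNA hydroxymethylation with DNA formylation and carboxylation. The labels name no allele, strain, age or treatment, and do not say which oxidation step either mutant affects, so the comparisons below are named by genotype label alone. With 2 lines per mutant genotype, each line has a large part in every mutant mean.

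Imprinted genes are transcribed mainly from the maternal or the paternal chromosome. The choice is set by imprinting control regions, stretches of DNA that carry methylation on the chromosome of only 1 parent, placed in the germline and kept through later cell divisions by the maintenance methyltransferase DNMT1 and by the zinc finger protein ZFP57 with its partner TRIM28. Most control regions carry the mark on the maternal chromosome; those of H19/Igf2, Dlk1/Meg3 and Rasgrf1 carry it on the paternal one. TET proteins convert methylated cytosine first to the hydroxymethyl form and then to the formyl and carboxyl forms, a route by which methylation can be lost. In brain, several imprinted genes regulate growth, cell cycle exit and neuronal differentiation. The counts used here add up RNA of both parental chromosomes, so a change of level does not say which allele changed.

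RefSeq promoter windows of 300 bases (250 before to 50 after a gene's start, build GRCm38.p6) were at hand for 37 of the 45 genes. Zinc finger protein ZFP57 binds the hexamer TGCCGC when its CpG is methylated, and the windows were searched for these letters and their reverse complement GCGGCA. Of the 37 genes, 13 (35.1%) had the hexamer in at least 1 window, against 13.1% of the 27025 genes in the promoter table. Some genes have several windows, and these can overlap almost fully, as in Mest and Gnas, so windows are not independent. Counted by window, 25.5% of the 55 windows of imprinted genes held it, against 11.6% of all 32851 windows. The windows of imprinted genes also held more CpG dinucleotides, with a median of 15 against 7 over all windows, and the hexamer itself contains a CpG. Shown first are 5 of the windows that hold the hexamer, in capitals. Zdbf2 is shown for having the most hexamers in a window, and the others because their RNA differed strongly between libraries. They are Nnat (neuronatin, chr2:157559828-157560127, plus strand), Plagl1 (a zinc finger growth regulator, chr10:13090582-13090881, plus strand), Zim1 (a zinc finger gene next to Peg3, chr7:6696383-6696682, minus strand), Nap1l5 (a nucleosome assembly family gene, chr6:58907077-58907376, minus strand) and Zdbf2 (the first of its 2 windows, chr1:63200108-63200407, plus strand).
Nnat: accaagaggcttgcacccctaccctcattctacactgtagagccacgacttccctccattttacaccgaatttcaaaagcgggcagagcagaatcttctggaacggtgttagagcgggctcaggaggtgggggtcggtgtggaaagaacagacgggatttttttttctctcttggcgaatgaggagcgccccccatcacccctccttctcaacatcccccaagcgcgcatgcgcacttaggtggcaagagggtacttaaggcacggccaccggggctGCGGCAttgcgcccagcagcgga
Plagl1: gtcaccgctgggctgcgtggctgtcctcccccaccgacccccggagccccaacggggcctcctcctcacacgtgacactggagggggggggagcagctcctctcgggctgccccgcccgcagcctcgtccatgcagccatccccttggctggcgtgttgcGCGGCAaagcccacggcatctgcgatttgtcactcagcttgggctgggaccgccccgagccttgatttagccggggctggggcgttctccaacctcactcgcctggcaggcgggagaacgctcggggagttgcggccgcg
Zim1: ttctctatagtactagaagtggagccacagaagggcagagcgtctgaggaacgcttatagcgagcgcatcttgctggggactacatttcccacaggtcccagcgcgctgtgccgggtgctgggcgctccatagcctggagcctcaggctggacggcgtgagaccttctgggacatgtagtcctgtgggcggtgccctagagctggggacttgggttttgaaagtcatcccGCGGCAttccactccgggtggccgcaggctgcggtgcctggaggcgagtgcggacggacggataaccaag
Nap1l5: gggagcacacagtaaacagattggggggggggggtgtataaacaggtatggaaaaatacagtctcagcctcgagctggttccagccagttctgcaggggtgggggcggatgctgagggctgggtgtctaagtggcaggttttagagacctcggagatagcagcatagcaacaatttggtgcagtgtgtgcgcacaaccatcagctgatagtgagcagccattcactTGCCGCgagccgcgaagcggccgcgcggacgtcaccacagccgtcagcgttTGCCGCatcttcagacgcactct
Zdbf2: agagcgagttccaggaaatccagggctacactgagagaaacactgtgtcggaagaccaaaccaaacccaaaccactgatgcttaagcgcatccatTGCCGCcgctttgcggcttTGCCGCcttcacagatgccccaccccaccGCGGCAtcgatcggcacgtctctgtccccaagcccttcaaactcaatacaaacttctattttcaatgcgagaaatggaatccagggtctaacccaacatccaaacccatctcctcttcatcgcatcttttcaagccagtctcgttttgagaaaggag
The Zdbf2 window shown holds 3 hexamers, that of Nap1l5 holds 2 and each of the others 1. The second Zdbf2 window, chr1:63273019-63273318, has 38 CpG dinucleotides and 0 hexamers. A match is a description of letters and not a measured binding site. Of other genes whose RNA differed strongly, Magel2, Asb4, Phlda2, Mkrn3 and Inpp5f had windows without the hexamer. No window was at hand for H19 or Peg13. Meg3, Mest, Snrpn, Grb10 and Commd1 had the hexamer and passed the test in none of the comparisons below. A link between the hexamer and a change of RNA was not tested.

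The next windows belong to Igf2r (chr17:12769657-12769956, minus strand) and Airn (chr17:12741061-12741360, plus strand), shown because their RNA moved together. Neither window holds the hexamer. Igf2r has 34 CpG dinucleotides in its window and Airn has 3.
Igf2r: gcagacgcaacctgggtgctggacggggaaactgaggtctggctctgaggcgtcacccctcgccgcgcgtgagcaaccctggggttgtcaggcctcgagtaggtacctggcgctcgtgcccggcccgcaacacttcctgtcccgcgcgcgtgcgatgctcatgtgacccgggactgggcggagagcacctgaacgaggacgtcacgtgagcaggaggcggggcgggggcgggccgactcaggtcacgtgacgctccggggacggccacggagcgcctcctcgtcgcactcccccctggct
Airn: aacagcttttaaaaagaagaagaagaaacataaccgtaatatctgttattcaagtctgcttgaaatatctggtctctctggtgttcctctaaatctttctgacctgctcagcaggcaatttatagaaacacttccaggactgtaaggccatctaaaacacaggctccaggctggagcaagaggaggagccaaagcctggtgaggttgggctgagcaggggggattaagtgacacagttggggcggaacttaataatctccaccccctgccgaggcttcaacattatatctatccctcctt
The Igf2r window has the composition of a CpG island, while the Airn window read here does not.

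The libraries held between 33340167 and 62545457 reads in genes. Of 14 neural stem cell markers, all were in the table, with summed normalized counts of 205201 to 211045 in WT, 175328 and 184714 in TFoCa, and 168670 and 140024 in TMut. Markers are counted as called by limma at an adjusted p under 0.05 against WT. Over all genes tested 8.77% were called in TFoCa and 38.8% in TMut. In TMut 11 of the 14 fell and 1 rose against WT, and in TFoCa 2 fell. Sums of 17 mesenchymal markers were 186546 to 207383 in WT, 495191 and 551785 in TFoCa, and 444898 and 351245 in TMut, with 14 rising in TFoCa, and 12 rising and 2 falling in TMut. Neuronal markers summed to 74583 to 79629 in WT, 57953 and 61436 in TFoCa, and 21126 and 12338 in TMut, and 11 of the 12 fell in TMut. Pluripotency markers summed to 16447 to 32864 in WT, 1641 and 2886 in TFoCa, and 19426 and 69684 in TMut. Of the 12, 11 fell in TFoCa, and 2 rose and 1 fell in TMut. In TMut 7 of 8 astrocyte markers fell and 1 rose (median -2.71), and 6 of 9 oligodendrocyte markers fell and 1 rose (median -0.97), against 1 called of each list in TFoCa. Of 7 endothelial markers 6 were tested, of which 1 fell in TFoCa and 1 rose and 1 fell in TMut (16.7% and 33.3% called). Of 7 microglial markers 1 was in the table and was not called. The part of these differences in the imprinted genes' values was not tested. In bulk RNA, fewer cells of a type and less RNA per cell cannot be told apart.

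The comparison of TFoCa with WT asked whether imprinted RNA differs in TFoCa cells. Of the 45 genes 5 rose and 0 fell, which is 11.1% called, against 8.77% of all 18134 genes tested (5.25% higher and 3.52% lower). A gene was called at an adjusted p under 0.05 in limma, with Benjamini-Hochberg adjustment over all genes tested, on log2(normalized count + 1); errors are standard errors on that scale. Of all genes called, 59.9% were higher with limma and 70.1% with edgeR. The risers were Igf2r, Airn, Igf2, Peg3 and Ndn, with log2 fold changes from 0.55 to 1.14. The count of 0 falling genes came from limma, while edgeR called 0 lower and DESeq2 1. At an unadjusted p under 0.05 in limma, 3 genes were lower and 9 higher. The share of all genes at that unadjusted threshold was not taken, so this split has no background to compare with. The median log2 fold change over the 45 genes was 0.20, against -0.02 over all genes. Without WT replicate 1, 2 or 3 the count of called genes was 1. Calls over all genes fell in these fits too, from 1590 to 734, 495 and 638.

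The comparison of TMut with WT asked the same of TMut cells, in which 9 of the 45 genes rose and 14 fell. That is 51.1% called, against 38.8% of all genes tested (18.4% higher and 20.4% lower). A mean count of 100 or more was reached by 43 of the 45 genes and by 13198 of the 18134 tested. The share called among such genes was not taken in any comparison, so these backgrounds are not matched for level. H19, Phlda2, Igf2r and Airn rose by more than 1 log2 unit and Impact by 1.0 ± 0.11. The falls were led by Peg13, Nnat, Asb4, Zim1 and Magel2. The median log2 fold change was -0.16 over the 45 genes and 0.00 over all genes. Without WT replicate 2 the count of called genes was 14, and without WT replicate 3 it was 15. Calls over all genes fell in these fits too, from 7043 to 4861 and 4802. Of all 45 genes, 28 were called in some comparison and 17 in none, and 3 rose in both mutants against the shared WT libraries (Igf2r, Airn and Peg3). The matching counts over all genes were not taken, so none of these counts has a background to compare with.

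**Figure D1:**
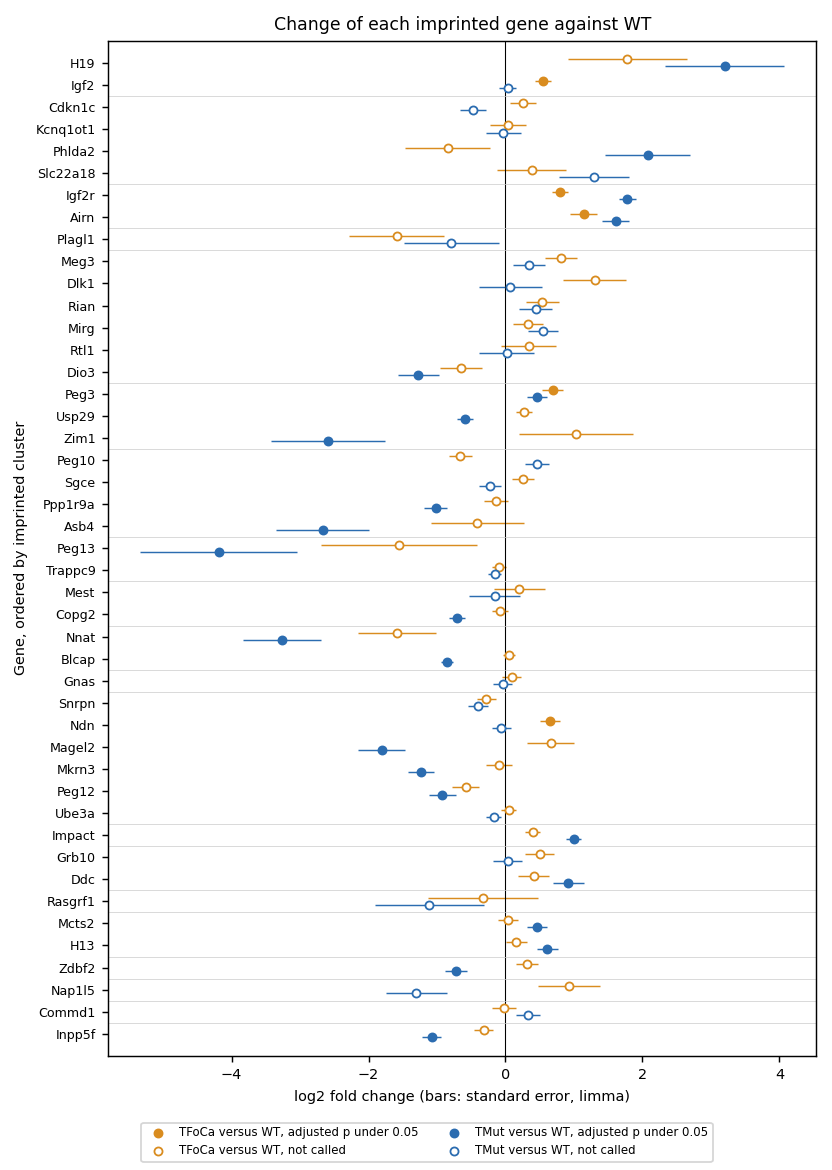
Log2 fold change against WT of each of the 45 imprinted genes (vertical axis, ordered by cluster), with the standard error as a bar; orange is TFoCa (2 libraries), blue is TMut (2 libraries), and filled points passed the test. In TFoCa 5 points are filled, all above 0, while in TMut 9 are above and 14 below 0.

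Igf2r rose in both mutants, and Airn rose with it. Igf2r encodes the receptor that takes up insulin-like growth factor 2 for breakdown and sorts lysosomal enzymes; it is maternally expressed in most tissues and biallelic in neurons. Its normalized counts were 8770.1, 9251 and 10582 in WT, 17626 and 15450.3 in TFoCa, and 31071 and 34483 in TMut. The groups did not overlap, and TMut lay above TFoCa, which lay above WT. Log2 fold changes were 0.80 ± 0.12 in TFoCa (adjusted p = 0.00996), 1.78 ± 0.12 in TMut (adjusted p = 0.000117) and 0.99 ± 0.13 for TMut against TFoCa (adjusted p = 0.0024). These 3 calls were kept under every alternative and with any library left out, with adjusted p of at most 0.0493, 0.00211 and 0.0198. Airn, the paternally expressed antisense RNA that starts within Igf2r and represses it in cis outside neurons, had 109, 113.5 and 117 in WT, 231 and 273 in TFoCa, and 369.7 and 329 in TMut. Both mutants again lay above WT without overlap. Airn rose by 1.14 ± 0.20 log2 units in TFoCa (adjusted p = 0.0155) and by 1.61 ± 0.20 in TMut (adjusted p = 0.000882). For TMut against TFoCa the value of Airn was 0.47 ± 0.22 and did not pass the test (adjusted p = 0.132). In TFoCa the Airn call was lost without any 1 of the WT libraries (adjusted p from 0.0553 to 0.0665). The ratio of Igf2r to Airn counts, in which the size factor cancels, was 80.4 to 90.2 in WT, 76.4 and 56.7 in TFoCa, and 84.0 and 105 in TMut. The strand setting of the counting is not given in the sources used here, so antisense reads cannot be assigned with certainty. In GENCODE M21 no exon of Airn overlaps one of Igf2r, which does not cover unspliced Igf2r reads. Their part in the Airn counts was not tested.

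**Figure D2:**
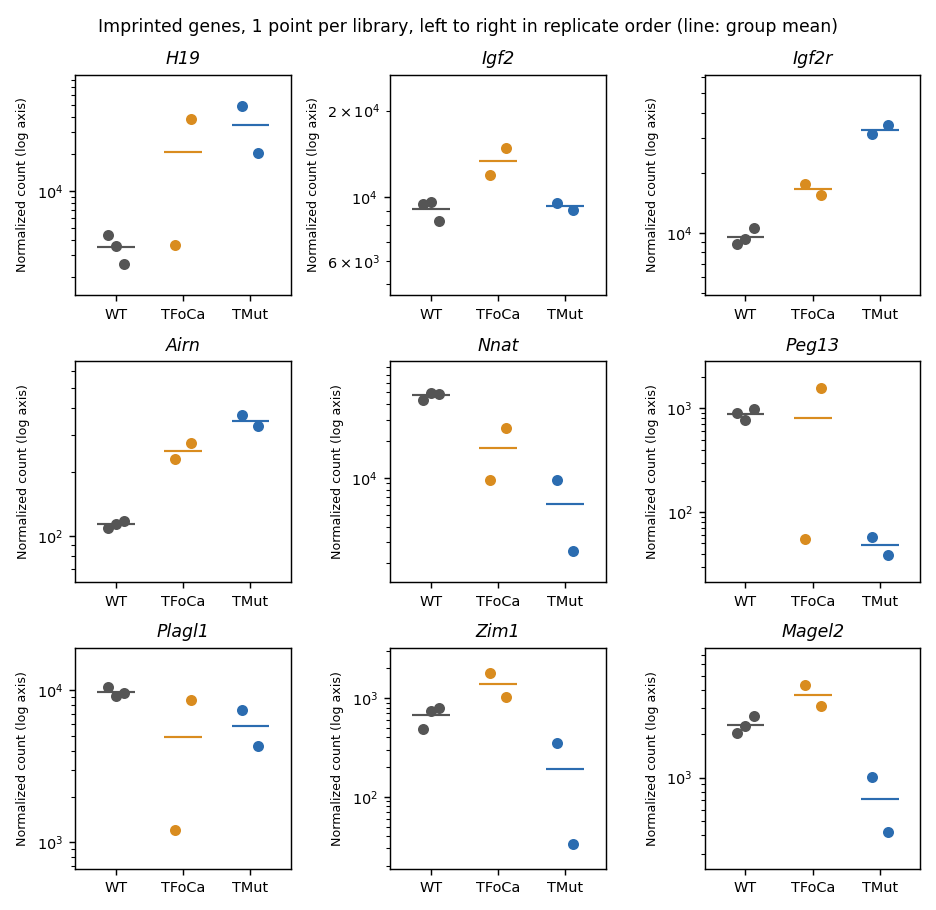
Normalized counts (log axis) of 9 imprinted genes, with 1 point per library in replicate order and a line at the group mean. Igf2r and Airn step up from WT to TFoCa to TMut, while the 2 TFoCa points of H19, Peg13 and Plagl1 lie far apart. The step of Airn from TFoCa to TMut did not pass the limma test (adjusted p = 0.132).

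At the H19/Igf2 cluster the long noncoding RNA rose in TMut and the growth factor did not. H19, a maternally expressed noncoding RNA and the host of a growth-limiting microRNA, had 4369.8, 3544 and 2568 normalized counts in WT, 3625 and 38141 in TFoCa, and 49020 and 20191 in TMut. TFoCa replicate 1 lay among the WT libraries and TFoCa replicate 2 among the TMut libraries. The rise in TMut was 3.20 ± 0.87 log2 units (adjusted p = 0.0221), or 9.9-fold by group means, and 2.56 or 3.84 with 1 TMut library left out. The call was lost when WT replicate 2, WT replicate 3 or TMut replicate 1 was left out (adjusted p = 0.0555, 0.0693 and 0.118). For TFoCa the value was 1.78 ± 0.87 (adjusted p = 0.246), and with TFoCa replicate 2 as its lone library, assumed to vary like the other groups, it was 3.48 (adjusted p = 0.0131). With TFoCa replicate 1 alone it was 0.09 (adjusted p = 0.939). Igf2, the paternally expressed growth factor of the cluster, had 9515, 9622 and 8253 in WT, 11936 and 14833 in TFoCa, and 9597 and 9063 in TMut. Igf2 was higher in TFoCa by 0.55 ± 0.12 log2 units (adjusted p = 0.0355), and its TMut libraries lay within the WT range (0.03 ± 0.12, adjusted p = 0.848). Its TFoCa call was lost without any 1 of the WT libraries or TFoCa replicate 2 (adjusted p from 0.079 to 0.121). The H19 to Igf2 ratio was 0.311 to 0.459 in WT and 0.304 in TFoCa replicate 1, but 2.57 in TFoCa replicate 2 and 5.11 and 2.23 in TMut. In GENCODE M21 an overlapping gene, Gm49394, shares 62.8% of the exon bases of Igf2. Of the exon bases of Snrpn, 27.3% are shared with Gm38393 on the same strand, and of those of Cdkn1c 30.7% with Gm44732 on the opposite strand. How reads in shared bases were counted is not known.

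In the neighbouring Kcnq1ot1 cluster Phlda2 was the called gene of the WT comparisons. Phlda2, a maternally expressed restrainer of placental growth, had 76.9, 119 and 69 in WT, 34.5 and 65.7 in TFoCa, and 173 and 773 in TMut. The 2 TMut libraries lay above all others and 4.48-fold apart. Phlda2 rose by 2.08 ± 0.62 log2 units in TMut against WT (adjusted p = 0.0322) and by 2.91 ± 0.68 against TFoCa (adjusted p = 0.0147). Without TMut replicate 1 these values were 3.16 and 3.99. Without TMut replicate 2 the first value was 1.0 (adjusted p = 0.194) and the second 1.84 (adjusted p = 0.0582); the first call was also lost without any 1 of the WT libraries (adjusted p from 0.0511 to 0.0952) and the second without TFoCa replicate 1 (adjusted p = 0.0595). Cdkn1c, a maternally expressed cell cycle inhibitor, ranged from 10123 to 12621 in WT, with 10758 and 17185 in TFoCa and 8552 and 7835 in TMut. It was lower in TMut than in TFoCa by a log2 value of -0.73 ± 0.21 (adjusted p = 0.0313), a call lost without WT replicate 2, TFoCa replicate 2 or either TMut library (adjusted p from 0.0558 to 0.137), and at -0.39 without TFoCa replicate 2. Slc22a18, a transporter gene, was counted at only 13.9 to 58.8. Kcnq1ot1, the paternal noncoding RNA that silences the cluster, ranged from 304.9 to 479 over all libraries, with log2 fold changes of 0.04 ± 0.26 and -0.03 ± 0.26 against WT.

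Peg13, a brain-enriched paternally expressed noncoding RNA inside an intron of Trappc9, was at a low level in 3 of the 4 mutant libraries. Its normalized counts were 899.8, 773 and 973 in WT, 55.6 and 1569 in TFoCa, and 57.6 and 38.4 in TMut. TFoCa replicate 1 matched the TMut libraries, and TFoCa replicate 2 was the highest of all 7. The fall in TMut was -4.19 ± 1.14 log2 units (adjusted p = 0.0224) and was lost when any 1 WT or TMut library was left out (adjusted p from 0.0542 to 0.11). In TFoCa the value was -1.56 ± 1.14 (adjusted p = 0.441), with -3.96 when TFoCa replicate 2 was left out and 0.84 when TFoCa replicate 1 was. Trappc9, the host gene, with roles in vesicle traffic, kept to 2832 to 3460 in all libraries (log2 fold change -0.09 ± 0.10 in TFoCa and -0.16 ± 0.10 in TMut). Per library the ratio of Trappc9 to Peg13 was 3.22 to 4.47 in WT, 59.2 and 1.89 in TFoCa, and 54.1 and 73.7 in TMut.

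Nnat, which lies in an intron of Blcap and encodes a small membrane proteolipid of developing neural tissue, fell furthest of the abundant genes. It had 43448, 49829 and 48884 normalized counts in WT, 9540.3 and 25751 in TFoCa, and 9591 and 2537 in TMut. All 4 mutant libraries lay below WT. In TMut the log2 fold change was -3.26 ± 0.57 (adjusted p = 0.00354), a call kept under every alternative, with -4.22 without TMut replicate 1 and -2.30 without TMut replicate 2. TFoCa had -1.59 ± 0.57 and did not pass the test (adjusted p = 0.125), though it did with 1 TMut library left out (adjusted p = 0.0439 and 0.0441) and in the fit to the 2 genotypes (adjusted p = 0.0453). Blcap, a regulator of proliferation, had 4944, 5368 and 5005 in WT, 5362 and 5184 in TFoCa, and 2969 and 2716 in TMut. It fell in TMut, by limma at -0.85 ± 0.09 log2 units (adjusted p = 0.000495). TFoCa lay within the WT range at 0.05 ± 0.09. The Nnat window shown above holds 1 hexamer after the gene's start.

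Plagl1, the zinc finger growth regulator whose window is shown above, had 10465, 9164 and 9539 in WT, 1208 and 8578 in TFoCa, and 7417 and 4274 in TMut. Its lowest value was that of TFoCa replicate 1. Neither mutant passed the test (log2 fold changes -1.59 ± 0.69 in TFoCa, adjusted p = 0.199, and -0.79 ± 0.69 in TMut, adjusted p = 0.398). With TFoCa replicate 1 as the lone TFoCa library the value was -3.01 (adjusted p = 0.004), and with TFoCa replicate 2 alone it was -0.18 (adjusted p = 0.715).

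The Peg3 cluster split. Peg3, a large zinc finger protein, had 13235, 14619 and 15170.0 in WT, 22913 and 23262 in TFoCa, and 16566 and 23359 in TMut, above WT in all 4 mutant libraries. Rises were 0.69 ± 0.15 in TFoCa (adjusted p = 0.0311) and 0.46 ± 0.15 in TMut (adjusted p = 0.0445). Each was lost when any 1 WT library was left out (adjusted p from 0.0844 to 0.0969 in TFoCa and from 0.0835 to 0.111 in TMut), the TFoCa call also without either TFoCa library (adjusted p = 0.0674 and 0.0755), and the TMut call without TMut replicate 2 (0.21, adjusted p = 0.291). Usp29, which shares the Peg3 control region and is read away from it, had 1075, 1166 and 1299.9 in WT, 1439 and 1407 in TFoCa, and 802 and 765 in TMut. It fell in TMut with a log2 fold change of -0.59 ± 0.12 (adjusted p = 0.00755), a call lost with the replicate number as a block (-0.51, adjusted p = 0.0525). Zim1, the maternally expressed zinc finger gene of the cluster, had 489, 738 and 801 in WT, 1779 and 1029 in TFoCa, and 348 and 33.6 in TMut. TFoCa lay above and TMut below WT, with log2 values of 1.03 ± 0.83 (adjusted p = 0.487), -2.59 ± 0.83 (adjusted p = 0.0406) and, for TMut against TFoCa, -3.62 ± 0.91 (adjusted p = 0.0188). Without TMut replicate 2 the TMut value against WT was -0.92 (adjusted p = 0.122), and the call was also lost without any 1 of the WT libraries (adjusted p from 0.067 to 0.108), with edgeR (adjusted p = 0.066) and with DESeq2 (adjusted p = 0.119). The call against TFoCa was lost without TFoCa replicate 1 (adjusted p = 0.0729), and the value was -1.96 without TMut replicate 2 and -5.29 without TMut replicate 1. Against WT it was -4.26 without TMut replicate 1.

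In the Peg10/Sgce cluster the 2 paternally expressed genes and the 2 maternally expressed ones did not move alike. Peg10, a retrotransposon-derived gene, had 27037, 26306 and 29352 in WT, 19491 and 15499 in TFoCa, and 31427 and 45479 in TMut. TFoCa lay below WT and TMut above it. Neither difference from WT passed the test (-0.66 ± 0.17, adjusted p = 0.0561, and 0.46 ± 0.17, adjusted p = 0.0723), while TMut exceeded TFoCa by 1.12 ± 0.19 log2 units (adjusted p = 0.00488). Sgce, a sarcoglycan gene read from the same control region, ranged from 2097 to 3357, and its ratio to Peg10 shifted: Peg10 over Sgce was 8.69 to 11.6 in WT, 5.81 and 4.69 in TFoCa, and 11.7 and 21.7 in TMut. Ppp1r9a, the synaptic scaffold neurabin, had 2267, 2947 and 2942 in WT, 2872 and 2078 in TFoCa, and 1364 and 1291 in TMut, a log2 fold change of -1.02 ± 0.17 in TMut (adjusted p = 0.00318). Asb4, a ubiquitin ligase subunit, had 584, 854 and 1048 in WT, 1566 and 234 in TFoCa, and 124 and 127 in TMut. Asb4 fell in TMut with a log2 fold change of -2.67 ± 0.68 (adjusted p = 0.0176), which was lost without WT replicate 2, WT replicate 3, TMut replicate 1 or TMut replicate 2 (adjusted p from 0.0512 to 0.077). Against TFoCa it was at -2.26 ± 0.75 (adjusted p = 0.0488), a call lost with any library left out but TFoCa replicate 2 (adjusted p from 0.0684 to 0.148), and at -0.89 without TFoCa replicate 1 and -3.63 without TFoCa replicate 2.

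Genes of the Snrpn/Ndn region, the mouse counterpart of the Prader-Willi and Angelman region, fell in TMut in part. Magel2, a regulator of ubiquitin ligases and endosomal recycling, had 2029.6, 2257 and 2659.7 in WT, 4306 and 3084 in TFoCa, and 1007 and 425 in TMut. It fell in TMut with a log2 fold change of -1.81 ± 0.34 against WT (adjusted p = 0.00469) and lay at -2.48 ± 0.37 against TFoCa (adjusted p = 0.00325). Without TMut replicate 2 these values were -1.19 and -1.85, and without TMut replicate 1 they were -2.43 and -3.10. Mkrn3, a zinc finger ubiquitin ligase that restrains puberty onset, had 1221, 1064 and 1245 in WT, 934 and 1289 in TFoCa, and 577 and 435 in TMut, a log2 fold change of -1.23 ± 0.19 in TMut (adjusted p = 0.00211). Peg12 had 3533, 3262 and 3629 in WT, 1875 and 2871 in TFoCa, and 2129.7 and 1581 in TMut. The TMut log2 fold change of Peg12, -0.92 ± 0.20 (adjusted p = 0.0087) was lost without TMut replicate 2 (adjusted p = 0.0674). Ndn, a MAGE family protein of neurons, had 7412, 7392 and 7859 in WT, 12781 and 11036 in TFoCa, and 8385 and 6245 in TMut. Ndn rose in TFoCa by 0.65 ± 0.14 (adjusted p = 0.028), lost without any 1 of the WT libraries or TFoCa replicate 1 (adjusted p from 0.0828 to 0.1), and its TMut value was -0.06 ± 0.14. Snrpn, a splicing factor gene whose promoter lies at the control region, ranged from 5653 to 6165 in WT and from 3767 to 5243 in the mutants and did not pass the test (adjusted p = 0.27 in TFoCa and 0.0578 in TMut). Ube3a, the maternally expressed ubiquitin ligase of the region, stayed between 2614 and 3435 (log2 fold change 0.05 ± 0.11 in TFoCa and -0.17 ± 0.11 in TMut).

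In the Dlk1/Meg3 cluster Dio3 was the called gene. Dio3, which inactivates thyroid hormone, had 299.7, 288 and 177 in WT, 165 and 152 in TFoCa, and 117.5 and 88.8 in TMut. Its log2 fold change in TMut was -1.27 ± 0.30 (adjusted p = 0.0119), lost without WT replicate 2 (adjusted p = 0.0515) or TMut replicate 2 (adjusted p = 0.0729). Dlk1, a transmembrane Notch-like protein, had 5749.7, 10532 and 12125 in WT, 13287 and 36916 in TFoCa, and 11200.4 and 8019 in TMut. TFoCa replicate 2 stood above all other libraries, and Dlk1 in TFoCa did not pass the test (1.30 ± 0.46, adjusted p = 0.123), with 2.03 (adjusted p = 0.0297) when TFoCa replicate 1 was left out and 0.56 (adjusted p = 0.445) when TFoCa replicate 2 was. The maternally expressed noncoding RNAs Meg3, Rian and Mirg were also highest in TFoCa replicate 2, at 69028, 32493 and 1855, against 25944 to 35882, 14024 to 19713, and 992 to 1267 in WT. None of the 3 passed the test in any comparison (log2 fold changes in TFoCa 0.81 ± 0.23, 0.54 ± 0.24 and 0.33 ± 0.22). Rtl1, a retrotransposon-derived gene, ranged from 161.9 to 422 with its highest value in the same library.

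Among the genes of smaller clusters, Impact, an inhibitor of the amino acid sensor kinase GCN2, rose in TMut. Its counts were 2410.0, 2184 and 2525 in WT, 3344 and 2904 in TFoCa, and 4556 and 4925 in TMut, in the order WT, TFoCa, TMut without overlap. The rise in TMut was 1.0 ± 0.11 log2 units (adjusted p = 0.000544), and TFoCa was at 0.40 ± 0.11 (adjusted p = 0.0668). Inpp5f, a phosphoinositide phosphatase gene, fell in TMut with a log2 fold change of -1.08 ± 0.14 (adjusted p = 0.00114), from 3808 to 4145 in WT to 2119 and 1635. Copg2, a coatomer subunit, fell by 0.71 ± 0.12 (adjusted p = 0.00265), from 3836 to 4216 in WT to 2612 and 2332, while Mest, its paternally expressed neighbour, had 15959, 17591 and 19624 in WT, 12492 and 32729 in TFoCa, and 19813 and 12621 in TMut without a call. Mest and Copg2 share 912 exon bases on opposite strands in GENCODE M21. Zdbf2 had 4013, 4328 and 5873 in WT, 5465 and 6209.8 in TFoCa, and 2858 and 2808 in TMut. It fell in TMut with a log2 fold change of -0.72 ± 0.16 (adjusted p = 0.0107), lost without TMut replicate 2 (adjusted p = 0.0589), and was at -1.04 ± 0.18 against TFoCa (adjusted p = 0.00503). Nap1l5 had 113, 107.8 and 179.5 in WT, 157 and 394 in TFoCa, and 66.8 and 40.8 in TMut; TMut was lower than TFoCa (-2.23 ± 0.50, adjusted p = 0.0126; -2.89 and -1.57 without TFoCa replicate 1 and 2), a call lost without TMut replicate 2 (adjusted p = 0.0700), and did not pass against WT (-1.30 ± 0.45, adjusted p = 0.0554), though it did with DESeq2 (adjusted p = 0.0208).

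Ddc, which makes dopamine and serotonin from their precursors, had 286, 350.5 and 323 in WT, 542 and 333.5 in TFoCa, and 658 and 558 in TMut. It rose in TMut by 0.92 ± 0.23 (adjusted p = 0.0168), lost when WT replicate 1, WT replicate 3 or TMut replicate 1 was left out (adjusted p = 0.051, 0.0511 and 0.0846). H13, a signal peptide peptidase, had 4077, 4116 and 4251 in WT, 5615 and 3808 in TFoCa, and 6127 and 6505 in TMut. Mcts2, a retrogene inside an intron of H13, had 482.5, 496 and 484 in WT, 455 and 553 in TFoCa, and 685 and 658 in TMut. Both rose in TMut, H13 by 0.61 ± 0.15 (adjusted p = 0.0177) and Mcts2 by 0.46 ± 0.15 (adjusted p = 0.0391). H13 lost its call without WT replicate 2, TMut replicate 1 or TMut replicate 2 (adjusted p from 0.0528 to 0.0955) and Mcts2 without any 1 WT or TMut library (adjusted p from 0.0885 to 0.128). Grb10, an adaptor that restrains insulin and IGF receptors, Commd1, a copper and ubiquitin regulator, Gnas, the stimulatory G protein subunit, and Rasgrf1, a Ras exchange factor, were not called in any comparison. Grb10 ranged from 12591 to 18695 in WT, with 18696 and 26571 in TFoCa and 14652 and 17733 in TMut, and Gnas lay between 25571 and 34565 in all libraries. Rasgrf1 was lowest in TMut replicate 2, at 14.4, against 64.4 to 98.8 in WT and 87.5 in TMut replicate 1. Commd1 lay between 1110.2 and 1900.5. Gnasas1, the antisense RNA of the Gnas cluster listed as Nespas, had 43.1, 29.2 and 51.8 in WT, 20.1 and 14.6 in TFoCa, and 68.0 and 61.2 in TMut, with TMut above TFoCa by 1.85 ± 0.43 log2 units (adjusted p = 0.0145). Its exons share 988 bases with Gnas on the opposite strand.

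**Figure D3:**
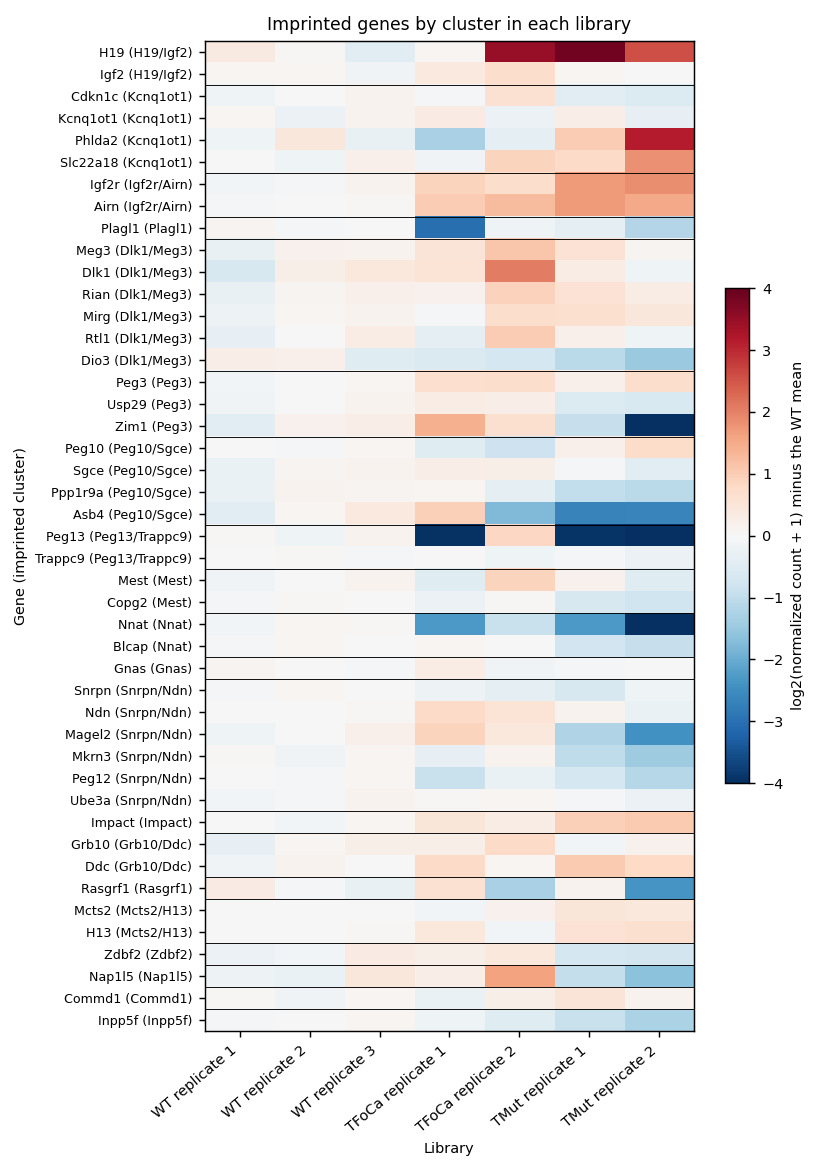
Difference of log2(normalized count + 1) from the WT mean for 45 imprinted genes (rows, by cluster) in 7 libraries (columns); red is above and blue below WT, and colours saturate at 4 log2 units. H19 is red in TFoCa replicate 2 and both TMut libraries, and Peg13 is blue in TFoCa replicate 1 and both TMut libraries.

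The direct comparison of TMut with TFoCa asked where the mutant genotypes differ. TMut was higher for 4 of the 45 genes and lower for 14, which is 40% called, against 35.8% of all genes tested (17.3% higher and 18.5% lower). Igf2r, Peg10, Phlda2 and Impact were higher in TMut. Lower genes included Magel2, Zim1, Asb4, Nap1l5, Mkrn3 and Zdbf2 by 1 log2 unit or more, and Igf2 (-0.51 ± 0.14, adjusted p = 0.0231), Ndn (-0.71 ± 0.15, adjusted p = 0.0104) and Usp29 (-0.86 ± 0.13, adjusted p = 0.00375) by less. The Igf2 call was lost when TFoCa replicate 2, TMut replicate 1 or TMut replicate 2 was left out (adjusted p = 0.0728, 0.053 and 0.111), and that of Ndn without TMut replicate 2 (adjusted p = 0.0523). Of the 18 calls, 7 (Blcap, Igf2r, Magel2, Mkrn3, Peg10, Usp29 and Zdbf2) were kept under every alternative. Counts of calls with 1 library left out are given below, for the imprinted genes and for all genes. Copg2 (-0.63 ± 0.13), Ppp1r9a (-0.88 ± 0.19), Inpp5f (-0.76 ± 0.16) and Impact (0.60 ± 0.12) passed, and each lost its call without TMut replicate 2 (adjusted p from 0.054 to 0.0591). Fitted without the WT libraries, the calls of Igf2, Cdkn1c, Phlda2, Zim1 and Asb4 were lost (adjusted p from 0.0503 to 0.113). H19, Nnat, Dlk1 and Peg13 did not pass (adjusted p = 0.274, 0.0697, 0.0918 and 0.137). Their values without TFoCa replicate 1 were -0.28, -2.38, -1.96 and -5.03, of which those of Nnat, Dlk1 and Peg13 passed the test (adjusted p = 0.0331, 0.0168 and 0.003). Without TFoCa replicate 2 they were 3.12, -0.95, -0.49 and -0.23, of which that of H19 passed (adjusted p = 0.00707) and the others did not (adjusted p = 0.296, 0.409 and 0.604). Nnat passed without TMut replicate 1 (-2.63, adjusted p = 0.00968) and was at -0.71 (adjusted p = 0.354) without TMut replicate 2.

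Several imprinted genes differed between lines of the same genotype. In TFoCa 4 of the 45 (8.89%) lay 2 log2 units or more apart between the 2 libraries, against 3.13% of all genes tested; with a mean count of 100 or more it was 4 of 43 (9.3%) against 0.993%. They were Peg13 (28.2-fold, higher in replicate 2), H19 (10.5-fold, higher in replicate 2), Plagl1 (7.1-fold, higher in replicate 2) and Asb4 (6.7-fold, higher in replicate 1). In TMut 3 were that far apart (6.67%, against 3.66% of all genes), namely Zim1 (10.3-fold), Rasgrf1 (6.08-fold) and Phlda2 (4.48-fold). With a mean of 100 or more it was 2 of 43 in TMut (4.65%), against 1.11% of such genes. In WT 0 of 45 were, over 3 libraries, against 2.1% of all genes and 0.311% of those with a mean of 100 or more; Dlk1 had the widest WT gap, at 1.08 log2 units. The median gap of the 45 genes was 0.49 log2 units in TFoCa and 0.37 in TMut, against 0.31 and 0.24 over all genes, and 0.29 in WT, as over all genes. Just outside the limit of 2 lay Nnat in TMut at 1.92 and Rasgrf1 in TFoCa at 1.91. These gaps rest on 2 lines per mutant and were not tested.

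**Figure D4:**
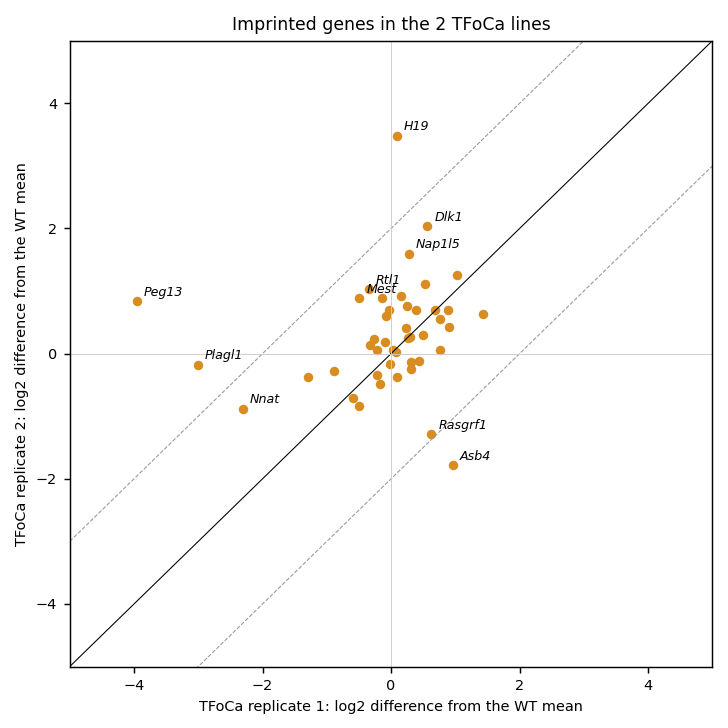
Difference from the WT mean (log2) of each imprinted gene in TFoCa replicate 1 (horizontal axis) and TFoCa replicate 2 (vertical axis); the solid line marks equal values and dashed lines 2 log2 units between the libraries. Peg13, Plagl1, H19 and Asb4 lie outside the dashed lines.

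Grouped by the parental allele that textbook knowledge assigns, 26 of the 45 genes are paternally and 16 maternally expressed, and 3 are mixed (Blcap, Gnas and Grb10, whose allele depends on transcript or tissue). The labels were not checked in these cells and need not hold there. Igf2r is counted as maternally expressed, though it is biallelic in neurons. In TMut against WT 5 paternally expressed genes rose and 9 fell (53.8% called, median -0.32), and 4 maternally expressed genes rose and 4 fell (50% called, median 0.33), against 38.8% called over all genes. In TFoCa 4 paternally and 1 maternally expressed gene rose (15.4% and 6.25% called, against 8.77% over all genes; medians 0.23 and 0.21). Of the 7 noncoding RNAs, Airn rose in both mutants, H19 rose and Peg13 fell in TMut, and Kcnq1ot1, Meg3, Rian and Mirg were not called. The difference between the allele groups was not tested.

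Per kilobase of merged exon (GENCODE M21 lengths), Nnat was the most abundant of the 45 in WT at 25909 normalized counts per kb, followed by Cdkn1c at 5603 and Mest at 4493. H19 ranked 13 in WT at 1420.2 per kb, and in TMut it ranked 1 at 14067, with Nnat at 3316 and rank 6. Igf2r moved from rank 17 in WT, at 1024 per kb, to rank 5 in TMut at 3521. Kcnq1ot1, at 4.2 per kb over its long transcript, was last in every group. Ranks next to each other are descriptions of group means and many do not differ beyond the spread between libraries.

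Of 24 genes for imprint maintenance and regulation 23 were tested. In TFoCa 6 fell (26.1% called, against 8.77% over all genes) and the other 17 did not pass the test. The falls were led by Dppa3, which shields methylated DNA in the early embryo (-4.56 ± 0.50, adjusted p = 0.00347), and including Dnmt1 (-0.51 ± 0.09, adjusted p = 0.0156), Ctcf, the insulator protein that binds the unmethylated H19 control region (-0.49 ± 0.09, adjusted p = 0.0203), and Hells (-0.95 ± 0.20, adjusted p = 0.0255). In TMut 2 rose and 6 fell (34.8% called, against 38.8% over all genes, a share near the background): Dnmt3b rose (2.34 ± 0.47, adjusted p = 0.0065), and Tdg (-0.66 ± 0.09, adjusted p = 0.00114), Ctcf (-0.51 ± 0.09, adjusted p = 0.00425) and Ehmt1 (-0.49 ± 0.09, adjusted p = 0.00553) fell. Zfp57, the factor of the hexamer, had 4433 to 4838 normalized counts in WT, 5172 and 4758 in TFoCa, and 4353 and 5608 in TMut, and was not called. Median log2 fold changes of the list were -0.21 in TFoCa and -0.19 in TMut. Dppa3 had 517, 1289 and 789 normalized counts in WT, 21.1 and 52.3 in TFoCa, and 303 and 539 in TMut. Dnmt3b had 724 to 805 in WT, 329.5 and 365 in TFoCa, and 1996 and 7693 in TMut. Of the 12 pluripotency markers above, 11 fell in TFoCa, and 2 rose and 1 fell in TMut. The part of that difference in the values of this list was not tested.

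Partners of IGF signalling, which act with Igf2, Igf2r and Grb10, numbered 22, all tested. In TFoCa 5 rose (22.7% called, against 8.77% over all genes) and the other 17 did not pass the test. The rises were led by Igfbp3, an IGF binding protein (2.53 ± 0.25, adjusted p = 0.0029), Igfbp4 (1.96 ± 0.29, adjusted p = 0.00989) and Igf1r, the signalling receptor (0.57 ± 0.09, adjusted p = 0.0129). In TMut 7 rose and 4 fell (50% called, against 38.8% over all genes), with Igfbp3 (3.24 ± 0.25, adjusted p = 0.00017) and Pik3r1 (0.91 ± 0.10, adjusted p = 0.000574) up and Irs2 down (-0.50 ± 0.10, adjusted p = 0.00702). Of 50 further imprinted or reportedly imprinted genes 41 were tested, of which 4 rose in TFoCa and 7 rose and 7 fell in TMut (9.76% and 34.1% called, near the shares over all genes). Slc38a4, an amino acid transporter, rose in both (0.62 ± 0.12, adjusted p = 0.0211, and 1.60 ± 0.12, adjusted p = 0.000157).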

How the data were processed

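RNA from neural stem cells at passage 1 was sequenced in 7 libraries. The deposited values are a size-factor scaled signal, gene read counts normalized by the authors; the submitters' processing notes list Trim Galore 0.6.5, STAR 2.7.3a, featureCounts, SAMtools, DESeq2 and build mm39. The annotation and strand setting are not given in the sources used here. Low values were whole multiples of the value of 1 read, which returned whole reads for 100% of values (tolerance 0.001). Of counts from 1 to 20, 70.29 to 79.32% were even, so counts may include both mates of a pair and the number of independent fragments may be lower.

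Genes at 10 or more in at least 2 libraries (18134 of 18145; no gene sum was under 71 reads) were tested with limma 3.58.1 (R 4.3.3) with a mean trend on log2(normalized count + 1), with all 3 genotypes in the same model, which leaves 4 residual degrees of freedom. The test assumes that the genotypes share 1 spread. Both WT comparisons use the same 3 WT libraries. Alternatives were other pseudocounts, filters and scaling, edgeR 4.0.16 and DESeq2 1.42.0 on recovered reads, fits to the 2 genotypes compared, a replicate block, robust limma, and each library left out. The recovered reads gave edgeR 1752, 7180 and 6470 called genes for TFoCa against WT, TMut against WT and TMut against TFoCa. The limma fit was tested on simulated data.

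The members and lists were chosen with earlier results of these data known. All members in the table are reported; further lists are given by counts and by at most 4 genes of smallest adjusted p per comparison, Zfp57 and the defining markers aside. GENCODE M21 (build GRCm38) and RefSeq served for exon lengths, overlaps, names, chromosomes, promoters and the choice of flanking genes only. RefSeq held 93.12% of table symbols.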

Additional observations from a re-analysis of the deposited data

How the results depend on the processing

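Of the calls among the 45 genes, 1 of 5 in TFoCa against WT, 10 of 23 in TMut against WT and 7 of 18 in TMut against TFoCa were kept under every alternative. Leaving out 1 library moved the called, higher and lower counts to 1 to 10, 1 to 8 and 0 to 3 in TFoCa against WT, to 14 to 27, 4 to 10 and 9 to 17 in TMut against WT, and to 8 to 22, 2 to 8 and 6 to 17 in TMut against TFoCa. In TFoCa against WT DESeq2 called 8 genes, 1 of them lower, and the fit to the 2 genotypes called 2 lower. Signs turned for 3 values that were not called: Peg13 in TFoCa against WT was 0.84 without TFoCa replicate 1 (-3.96 without TFoCa replicate 2), Rasgrf1 in TMut against WT was 0.15 without TMut replicate 2 (-2.37 without TMut replicate 1), and H19 in TMut against TFoCa was -0.28 without TFoCa replicate 1 (3.12 without TFoCa replicate 2). With the replicate number as a block, 1 gene was called in TFoCa against WT (1 higher), and 14 in TMut against WT (4 higher). Same-numbered libraries deviated together with r from 0.0192 to 0.185, not over 0.1 in every pair. No r was taken between libraries of different number, so these values cannot decide whether the numbers pair the lines. The main fit leaves the numbers out. Over all genes, calls in TFoCa against WT numbered 1590, against 2947 with DESeq2, 555 with the block and 495 to 1768 with 1 library left out. In TMut against WT there were 7043, against 4620 with the block and 4329 to 8127 with 1 library left out, and in TMut against TFoCa 6491, against 3419 in the fit to the 2 genotypes and 3164 to 5940 with 1 library left out. Leaving out a mutant library leaves 1 library of that genotype, assumed to vary like the others. The cause of these changes was not tested.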

Other observations

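Genes that flank the imprinted ones were read from the same fit, taking up to 2 protein-coding genes on either side in RefSeq order that are in no imprinted list. Of 83 such neighbours 59 were tested. In TMut against WT 13 rose and 6 fell (32.2% called, against 38.8% of all genes and 51.1% of the imprinted genes), with a median log2 fold change of 0.16. In TFoCa against WT 5 rose and 1 fell (10.2%, median 0.04). In TMut against TFoCa 13 were higher and 5 lower (30.5%, median 0.12). The imprinted genes had 14 lower calls in TMut against WT among 45. The difference between neighbours and imprinted genes was not tested.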
